A study of Mus musculus with 12 samples.

Results

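The insulin-like growth factor (IGF) ligand IGF2, the receptors IGF1R and IGF2R, and 6 IGF binding proteins (IGFBP2 to IGFBP7) were followed in cells labelled U2OS, a human osteosarcoma line. These 9 genes were found by full name among the 58735 genes of the deposited expression table. They were selected on their FPKM in these same 12 libraries, with earlier results in view, so their levels and changes describe these libraries. Of the 9 genes, 6 reached a mean of 0.5 FPKM (fragments per kilobase of gene, scaled to the depth of the library) over the 12 libraries and were tested among 17538 genes. IGFBP2, IGFBP3 and IGF2 stayed under that limit and are given by their levels and reads only.

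IGF1 and IGF2 are secreted peptides that bind IGF1R, a receptor tyrosine kinase that passes the signal to the PI3K-Akt and Ras-MAPK cascades and drives growth and survival. IGF2R, which is also the cation-independent mannose 6-phosphate receptor, has no kinase and carries IGF2 and lysosomal enzymes into the endosomal route. The IGFBPs are secreted proteins that hold IGFs away from their receptor or keep them near the cell, and secreted proteases such as the pappalysins and HTRA1 cut them. In bone, IGFs and IGFBPs are made by osteoblasts and stored in the matrix.

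The study asked how the splicing factor SRSF1 acts in osteosarcoma, and sequenced RNA from 4 groups of U2OS cells with 3 libraries each. Blank cells received no stated agent. The siSRSF1-2 and siSRSF1-3 groups each received 1 of a pair of small interfering RNAs against SRSF1, and the OE-LINC01134 group overexpressed the long non-coding RNA LINC01134. The labels state no time point, promoter, control siRNA or empty vector, so the siRNA or the transgene cannot be told apart from its delivery. The study's methods speak of biological replicates, in a number per condition that differs from the labels, and a caption of experimental repeats, but neither says that the libraries came from separate cultures. The p-values then measure only the spread between these libraries, which may be technical. The labels and the study's results name U2OS, while its methods place the siRNA transfections in HOS, another osteosarcoma line. The labels name mouse as the organism, but the gene identifiers in the table are human.

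SRSF1 measured 35.9, 19.8 and 20.5 FPKM in blank libraries 1 to 3. It measured 7.09, 7.46 and 7.41 FPKM with siSRSF1-2 and 3.33, 6.81 and 7.90 FPKM with siSRSF1-3. Both siRNA groups lay below every blank library, with log2 fold changes of -1.72 (adjusted p = 0.00500, limma) and -2.09 (adjusted p = 0.0518, limma). LINC01134 measured 878 to 1279 FPKM in its overexpressing libraries and 0.497 to 1.11 FPKM in the others.

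The libraries held 26237763 to 32954539 reads on genes, as recovered from FPKM and gene length. Of 12 pairs within groups, 5 (blank 2 and 3, OE-LINC01134 libraries 1 and 3, and all pairs of siSRSF1-2) differed by only 1.93 to 2.70 times counting noise. The other 7 pairs differed by 23.5 to 95.5 times counting noise. Blank 1, OE-LINC01134 library 2 and the siSRSF1-3 libraries therefore stood apart from their groups, and values without them are given beside the results that rest on them. By this measure siSRSF1-3 library 3 was nearer to the siSRSF1-2 libraries (15.9 to 19.8) than to siSRSF1-3 libraries 1 and 2 (95.5 and 51.9). Blank 1 and OE-LINC01134 library 2 differed by 18.2 times. From its own group, blank 1 differed by 31.6 and 32.8 times and OE-LINC01134 library 2 by 34.1 and 34.6 times. Of 8 osteoblast markers, 4 reached 1 FPKM in some library (RUNX2, ALPL, COL1A1 and SPP1), while COL1A2 and IBSP, which osteoblasts express strongly, stayed below 0.1 FPKM in every library. Summed osteoblast markers ranged from 83.4 to 92.5 FPKM in blank, 51.9 to 54.0 with siSRSF1-2, 49.4 to 57.5 with siSRSF1-3 and 35.9 to 60.2 with OE-LINC01134. Of 5 epithelial markers, 3 reached 1 FPKM, mostly KRT8 and KRT18, with sums of 105 to 186 FPKM in blank, 63.2 to 66.3 with siSRSF1-2, 72.1 to 224 with siSRSF1-3 and 63.6 to 149 with OE-LINC01134. Endothelial, leukocyte, adipocyte and skeletal muscle markers summed to at most 1.32 FPKM in any library. In bulk RNA, fewer cells of a kind and less RNA per cell cannot be told apart.

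Blank cells carried a few IGF system genes at high levels and others near zero. IGF2R led with 29.3 ± 2.24 FPKM (SD, n = 3), followed by IGFBP7 with 26.5 ± 4.45, IGFBP5 with 13.4 ± 1.69, IGFBP6 with 12.6 ± 1.96 and IGF1R with 9.49 ± 0.708. The ranges of IGF2R and IGFBP7 overlapped, as did those of IGFBP5 and IGFBP6, so those neighbours in the order were not separated by their spread. IGFBP4 came next at 3.62 ± 3.11 FPKM, and IGFBP2, IGFBP3 and IGF2 lay at 0.191 ± 0.168, 0.122 ± 0.107 and 0.0916 ± 0.0233 FPKM. IGF2R had the highest mean in all 4 groups, although its range overlapped that of IGFBP7 in blank and in siSRSF1-3. With siSRSF1-2 the order below it was IGFBP7, IGF1R, IGFBP6 and IGFBP5, of which the last pair overlapped. With siSRSF1-3 it was IGFBP7, IGFBP6, IGF1R and IGFBP5, of which only IGFBP6 and IGF1R did not overlap. With OE-LINC01134 it was IGFBP6, IGFBP7, IGFBP5 and IGF1R, with all neighbours overlapping.

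**Figure D1:**
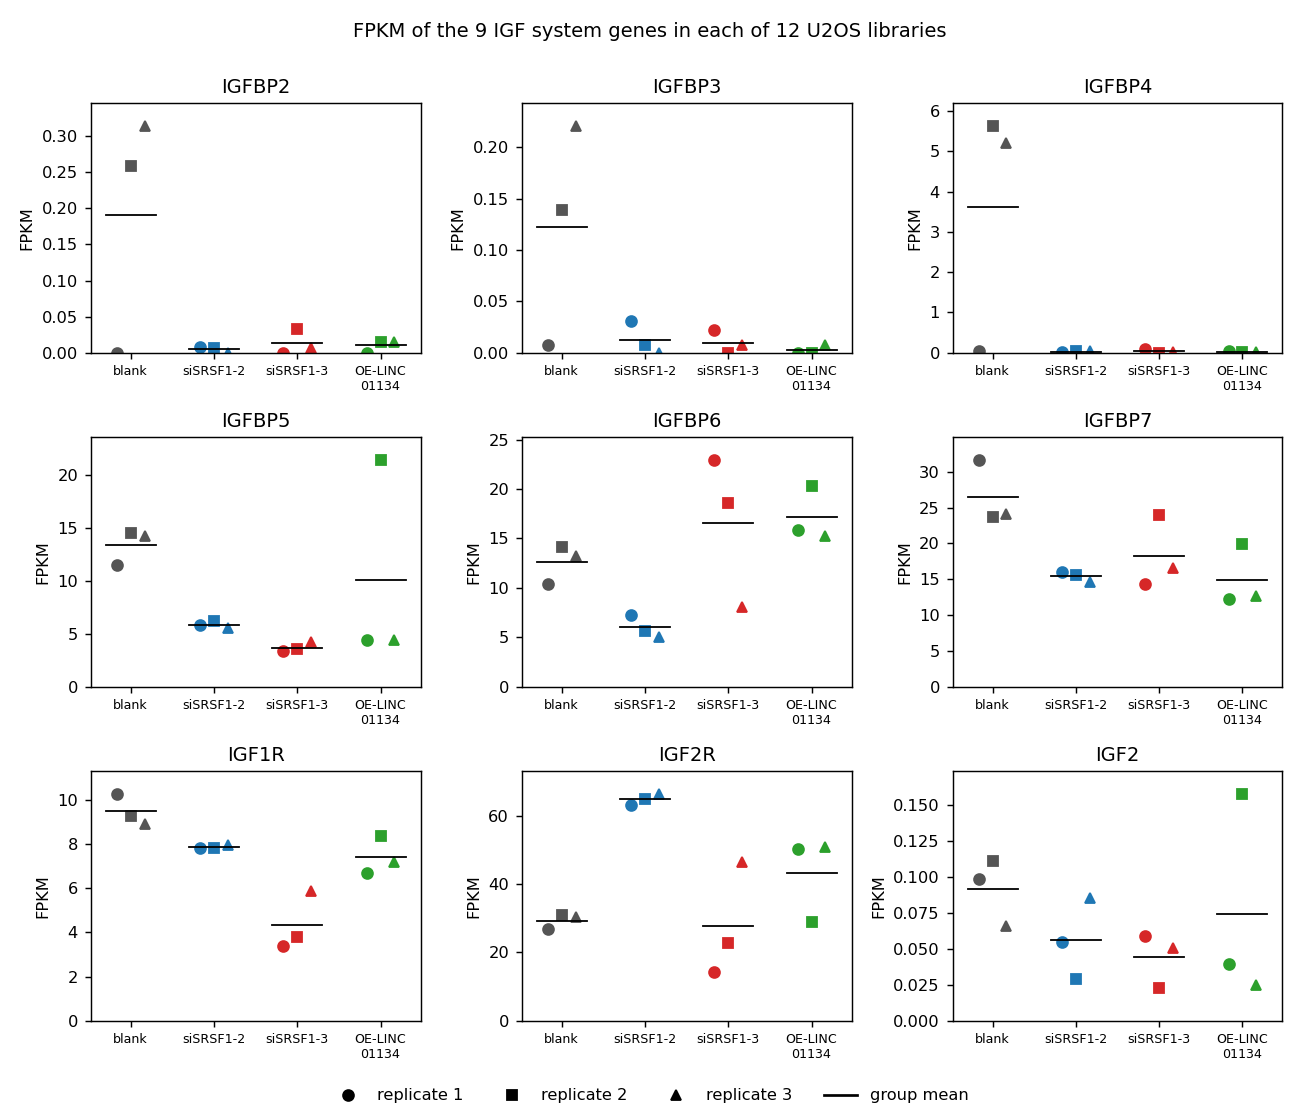
FPKM of each gene in the 12 libraries, with 1 panel per gene, a linear axis from 0, symbols for replicates 1 to 3 and a line at the group mean. IGFBP2, IGFBP3 and IGFBP4 stand above the floor in blank 2 and 3, IGFBP5 is below all blank libraries in both siRNA groups, and IGF2R is above 60 FPKM in all siSRSF1-2 libraries.

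The ligand was barely detected. IGF2, located on chromosome 11 from 2129112 to 2149603 (minus strand) in the table's coordinates, whose build is not named there, measured 0.0225 to 0.157 FPKM over the 12 libraries, or 4 to 30 reads per library. A second entry named IGF2 had no read in any library. IGF1 averaged 0.00246 FPKM and insulin was listed at 0 throughout. At this depth no difference in ligand RNA between groups could be read, and the level of IGF protein in the medium was not measured.

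IGF2R rose with siSRSF1-2. IGF2R (chromosome 6, 159969099 to 160113507, plus strand) measured 26.8, 31.0 and 30.3 FPKM in blank and 63.1, 65.1 and 66.5 FPKM with siSRSF1-2. Every siSRSF1-2 library was above every blank library, as in 49.5% of all genes tested for this comparison, which did not overlap in one direction or the other. The log2 fold change was 1.15 (SE 0.0725, 95% interval 0.97 to 1.32, adjusted p = 0.000951, limma). In a fit over all 4 groups with 1 shared spread, the adjusted p was 0.0960 (limma).

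With siSRSF1-3 the IGF2R libraries scattered, at 14.3, 22.6 and 46.6 FPKM. The first and second lay below all blank libraries and the last above them, with a log2 fold change of -0.25 (SE 0.409, adjusted p = 0.698, limma) that became 0.15 without siSRSF1-3 library 1. With OE-LINC01134, IGF2R measured 50.3, 29.0 and 50.9 FPKM, so libraries 1 and 3 were above the blank range and library 2 was inside it. The log2 fold change was 0.52 (SE 0.228, adjusted p = 0.206, limma), and leaving out 1 library gave 0.38 to 0.79, the highest without library 2. Compared directly, siSRSF1-3 was below siSRSF1-2 in every library, in a comparison where 54.6% of all genes did not overlap. The log2 difference was -1.39 (SE 0.415, adjusted p = 0.0847, limma). It passed the test without siSRSF1-3 library 3 (-1.85, adjusted p = 0.00236, limma), in a fit that called 2551 of 17538 genes as lower, beside 9 with all libraries.

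IGF1R, the signalling receptor (chromosome 15, 98648539 to 98964530, plus strand), lay below blank in all 3 treated groups and was called in none of them. It measured 10.3, 9.27 and 8.93 FPKM in blank, 7.82, 7.86 and 7.99 with siSRSF1-2, 3.39, 3.80 and 5.87 with siSRSF1-3, and 6.68, 8.39 and 7.22 with OE-LINC01134. No treated library reached the lowest blank library, in comparisons where 49.5%, 37.2% and 30.6% of all genes did not overlap with blank. The log2 fold change with siSRSF1-2 was -0.26 (SE 0.0753, adjusted p = 0.0485, limma), short of the log2 limit of 1 used for a call. With siSRSF1-3 it was -1.15 (SE 0.238, adjusted p = 0.0610, limma), and it passed without siSRSF1-3 library 3 (-1.38, adjusted p = 0.0101, limma) and in the fit over all 4 groups (adjusted p = 0.00501, limma). These fits called 1992 and 1177 of 17538 genes as lower, beside 163 without these changes. With OE-LINC01134 the log2 fold change of IGF1R was -0.35 (SE 0.131, adjusted p = 0.156, limma). The direct difference of siSRSF1-3 from siSRSF1-2 was -0.88 (SE 0.215, adjusted p = 0.0792, limma).

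Among the binding proteins, IGFBP5 and IGFBP6 fell with siSRSF1-2. Together with IGF2R they were 3 genes called there, 2 lower and 1 higher, beside 4.95% of all genes called in either direction (2.73% lower and 2.22% higher). With siSRSF1-3 IGFBP5 alone was called, lower, beside 1.26% of all genes (0.929% lower). With OE-LINC01134 and in the direct comparison of both siRNAs no member was called, beside 0.85% and 0.0855% of all genes, while at an unadjusted p under 0.05 and the same fold limit 1 member (IGFBP4, lower) and 2 members (IGFBP6 higher, IGF2R lower) passed. IGFBP4 entered the test only through blank 2 and 3, so its pass supports nothing here or with siSRSF1-3. That looser rule took 5.0% of all genes as lower with OE-LINC01134, and 9.01% as higher and 7.42% as lower between the siRNAs. By the same rule IGFBP5 and IGF1R, besides IGFBP4, were lower with siSRSF1-3, against 7.24% of all genes. A call here means an adjusted p under 0.05 and a log2 fold change beyond 1 in either direction.

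IGFBP5, the most abundant IGFBP of bone matrix, lies on chromosome 2 from 216672105 to 216695525 (minus strand). It measured 11.5, 14.5 and 14.3 FPKM in blank, 5.84, 6.18 and 5.56 with siSRSF1-2, and 3.34, 3.55 and 4.21 with siSRSF1-3. The 3 ranges did not overlap, with blank highest and siSRSF1-3 lowest. Of all genes tested, 49.5% did not overlap between siSRSF1-2 and blank, 37.2% between siSRSF1-3 and blank and 54.6% between the siRNAs. The log2 fold change was -1.18 with siSRSF1-2 (SE 0.110, 95% interval -1.44 to -0.91, adjusted p = 0.00208, limma). In the fit over all 4 groups its adjusted p was 0.176 (limma). With siSRSF1-3 the log2 fold change was -1.83 (SE 0.185, 95% interval -2.27 to -1.39, adjusted p = 0.0316, limma). That call was lost with the FPKM rescaled to equal sums (adjusted p = 0.0680, limma). It was also lost without blank 2, blank 3, siSRSF1-3 library 1 or siSRSF1-3 library 2, where the adjusted p was 0.195, 0.198, 0.0671 and 0.218 (limma) and the log2 fold change -1.76 to -1.80. The direct difference between the siRNAs was -0.65 (SE 0.133, adjusted p = 0.0742, limma).

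OE-LINC01134 split on IGFBP5, with 4.41 and 4.42 FPKM in libraries 1 and 3 and 21.4 FPKM in library 2. Library 2 was above every blank library and the other pair below. Over the 3 libraries the log2 fold change was -0.82 (SE 0.591, 95% interval -2.23 to 0.58, adjusted p = 0.404, limma). Leaving out 1 library gave -1.57 to -0.45. The value of -1.57 was without library 2 (adjusted p = 0.00534, limma), which kept the pair that differed by only 1.93 times counting noise. That fit called 1029 of 17538 genes as lower, beside 104 with all libraries.

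IGFBP6, which binds IGF2 in preference to IGF1, lies on chromosome 12 from 53097436 to 53102345 (plus strand). It measured 10.4, 14.1 and 13.2 FPKM in blank and 7.27, 5.63 and 5.05 FPKM with siSRSF1-2. All siSRSF1-2 libraries lay below the blank range, in a comparison where 49.5% of all genes did not overlap. The log2 fold change was -1.06 (SE 0.174, 95% interval -1.49 to -0.64, adjusted p = 0.00895, limma). The value sat close to the fold limit, and the call was lost without blank 2 (-0.97) or siSRSF1-2 library 3 (-0.95), with equal FPKM sums (-0.93) and with a pseudocount of 1 (-0.96). It was also lost with no filter on low values (adjusted p = 0.0573, limma) and in the fit over all 4 groups (adjusted p = 0.0929, limma), and held in the other 11 of 17 alternatives.

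IGFBP6 did not pass the test in the other groups. It measured 22.9, 18.6 and 8.08 FPKM with siSRSF1-3, where the first and second libraries were above and the last below the blank range, for a log2 fold change of 0.28 (SE 0.390, adjusted p = 0.644, limma). This value was -0.022 without siSRSF1-3 library 1 and -0.17 with equal FPKM sums. With OE-LINC01134 it measured 15.9, 20.3 and 15.2 FPKM, all above the blank range, with a log2 fold change of 0.45 (SE 0.170, adjusted p = 0.163, limma). Ranges of OE-LINC01134 and blank did not overlap for 30.6% of all genes tested. Every siSRSF1-3 library was above every siSRSF1-2 library, in a comparison where 54.6% of all genes did not overlap. The direct log2 difference was 1.34 (SE 0.402, 95% interval 0.36 to 2.32, adjusted p = 0.0848, limma). It passed the test without siSRSF1-3 library 3 (1.79, adjusted p = 0.00216, limma), in a fit that called 2807 of 17538 genes as higher, beside 6 with all libraries.

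IGFBP7, a secreted matrix protein with low affinity for IGFs, lies on chromosome 4 from 57030773 to 57110385 (minus strand). It measured 31.7, 23.8 and 24.2 FPKM in blank, 16.0, 15.6 and 14.6 with siSRSF1-2, 14.3, 24.0 and 16.5 with siSRSF1-3, and 12.2, 19.9 and 12.6 with OE-LINC01134. The siSRSF1-2 and OE-LINC01134 ranges were below blank, in comparisons where 49.5% and 30.6% of all genes did not overlap, while siSRSF1-3 library 2 reached into the blank range. The log2 fold changes were -0.77 with siSRSF1-2 (SE 0.123, adjusted p = 0.00835, limma), -0.56 with siSRSF1-3 (SE 0.247, adjusted p = 0.185, limma) and -0.85 with OE-LINC01134 (SE 0.221, adjusted p = 0.0885, limma). The first passed the p threshold and not the fold limit. With OE-LINC01134, leaving out 1 library gave -1.08 to -0.72. The value of -1.08 was without OE-LINC01134 library 2 and was called (adjusted p = 0.0118, limma), in a fit that called 1029 of 17538 genes as lower, beside 104 with all libraries. IGFBP7 overlaps POLR2B, a subunit gene of RNA polymerase II on the opposite strand with a mean of 25.7 FPKM, and whether the counting used strand is not stated in the sources used here.

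**Figure D2:**
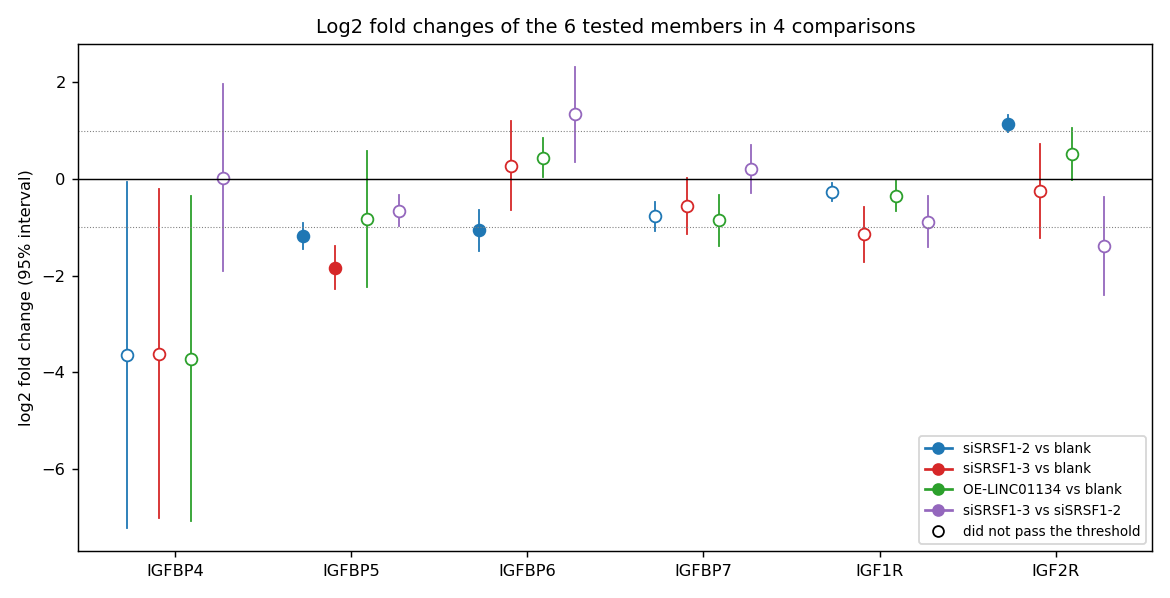
Log2 fold changes of the 6 tested genes with 95% intervals, coloured by comparison, with filled points where adjusted p was under 0.05 and the change beyond the dotted lines at 1 and -1. IGFBP5 (-1.18), IGFBP6 (-1.06) and IGF2R (1.15) are filled for siSRSF1-2, IGFBP5 (-1.83) is filled for siSRSF1-3, and IGFBP4 has the widest intervals.

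IGFBP4, IGFBP2 and IGFBP3 shared a pattern in which only blank 2 and blank 3 stood above a handful of reads. IGFBP4, the substrate of pappalysin 1 (chromosome 17, 40443461 to 40457731, plus strand), had 352 and 374 reads in blank 2 and 3, or 5.63 and 5.20 FPKM. In blank 1 and the other libraries it had 0 to 4 reads, at most 0.0927 FPKM. It entered the test only through blank 2 and 3. The log2 fold changes were -3.64, -3.61 and -3.72 for siSRSF1-2, siSRSF1-3 and OE-LINC01134, with SE of 1.47, 1.44 and 1.41 and adjusted p of 0.120, 0.159 and 0.162 (limma). They hang on the pseudocount, ranging from -1.77 to -1.75 with a pseudocount of 1 and from -5.20 to -4.86 with 0.01. Without blank 1 the libraries left fix the outcome, and no test is given.

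IGFBP2, which lies 7.67 kb from IGFBP5 on the opposite strand (chromosome 2, 216632828 to 216664436), had 35 and 49 reads in blank 2 and 3 and 0 to 4 reads in each of the other 10 libraries. IGFBP3, the main carrier of IGFs in blood (chromosome 7, 45912245 to 45921874, minus strand), had 18 and 33 reads in blank 2 and 3 and 0 to 4 in the others. Both stayed at or below 0.314 FPKM, and a count of 0 allows up to 3 reads, which is 0.0177 to 0.0335 FPKM for these genes. These limits cover counting error only. Since blank 1 looked like the treated libraries for all 3 genes, the groups overlapped in the reads of IGFBP2 and IGFBP3.

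The 6 IGFBP genes together made 53.5, 58.4 and 57.4 FPKM in blank and 29.2, 27.5 and 25.3 FPKM with siSRSF1-2. They summed to 40.7, 46.2 and 28.8 FPKM with siSRSF1-3 and to 32.5, 61.7 and 32.3 FPKM with OE-LINC01134. All siRNA libraries were below the blank range, while OE-LINC01134 library 2 was above it. With siSRSF1-2 the shares of IGFBP5, IGFBP6 and IGFBP7 in the sum overlapped those in blank. IGFBP7 gave 40.7% to 59.1% of it in blank and 54.9% to 57.9% with siSRSF1-2, where IGFBP5 gave 20.02% to 22.5% and IGFBP6 19.97% to 24.9%. IGFBP6 gave 19.3% to 24.2% in blank and 56.3%, 40.3% and 28% in siSRSF1-3 libraries 1 to 3. IGFBP5 gave 21.5% to 24.9% in blank, 7.67% to 14.6% with siSRSF1-3, and 13.6%, 34.8% and 13.7% in OE-LINC01134 libraries 1 to 3.

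**Figure D3:**
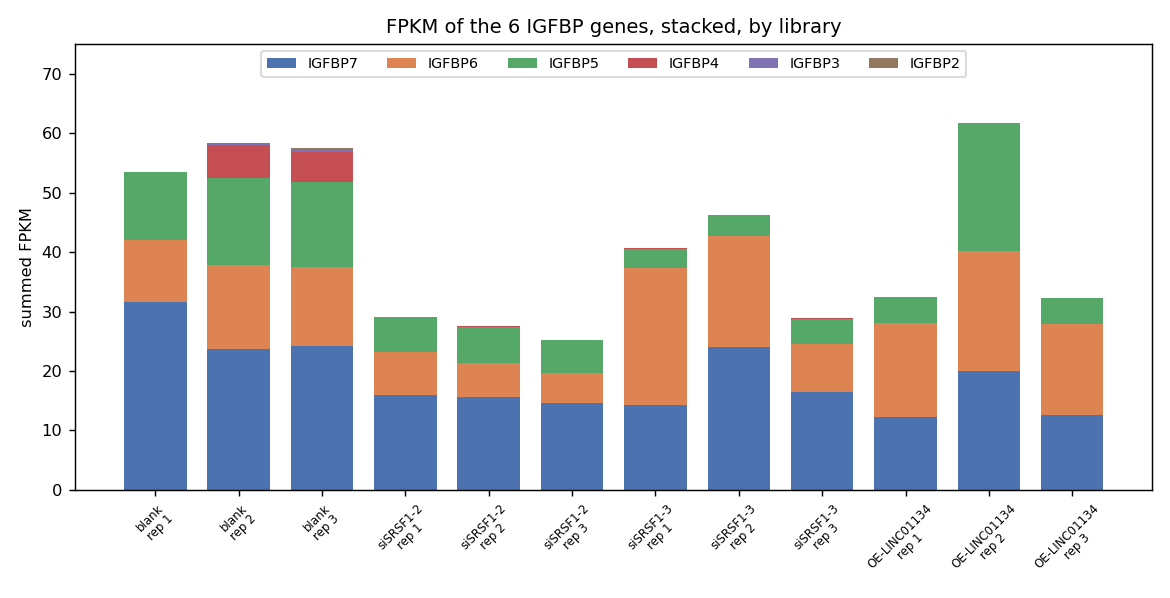
FPKM of the 6 IGFBP genes stacked for each library, on an axis from 0. The blank bars reach 53.5 to 58.4 FPKM and the siSRSF1-2 bars 25.3 to 29.2, IGFBP4 is visible only in blank 2 and 3, and OE-LINC01134 library 2 is taller than the other bars of its group.

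Gene length moved with several of these values. The receptors are long genes (IGF1R 13941 and IGF2R 17843 bases of gene length in the table) and IGFBP6 (1346 bases) and IGFBP7 (1930 bases) are short. Relative to the blank mean, the 1466 tested genes of 10 kb or more had a median log2 difference of -0.44, -0.39 and 0.03 in siSRSF1-3 libraries 1 to 3, and the 5346 genes under 2 kb had 0.32, 0.23 and 0.12. IGF2R was at -1.03, -0.37 and 0.67 in the same libraries and IGFBP6 at 0.87, 0.58 and -0.62. IGF1R was at -1.46, -1.30 and -0.68. IGFBP7, though short, was at -0.87, -0.13 and -0.67, on the other side of 0 from the median of the short genes. In the siSRSF1-2 libraries the long genes were at 0.17 to 0.20 and the short ones at 0.00 to 0.04. IGF2R was at 1.11, 1.15 and 1.18 there and IGFBP6 at -0.77, -1.13 and -1.29. In OE-LINC01134 libraries 1 to 3 the long genes were at 0.18, 0.02 and 0.20. The part of gene length in these results was not tested.

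**Figure D4:**
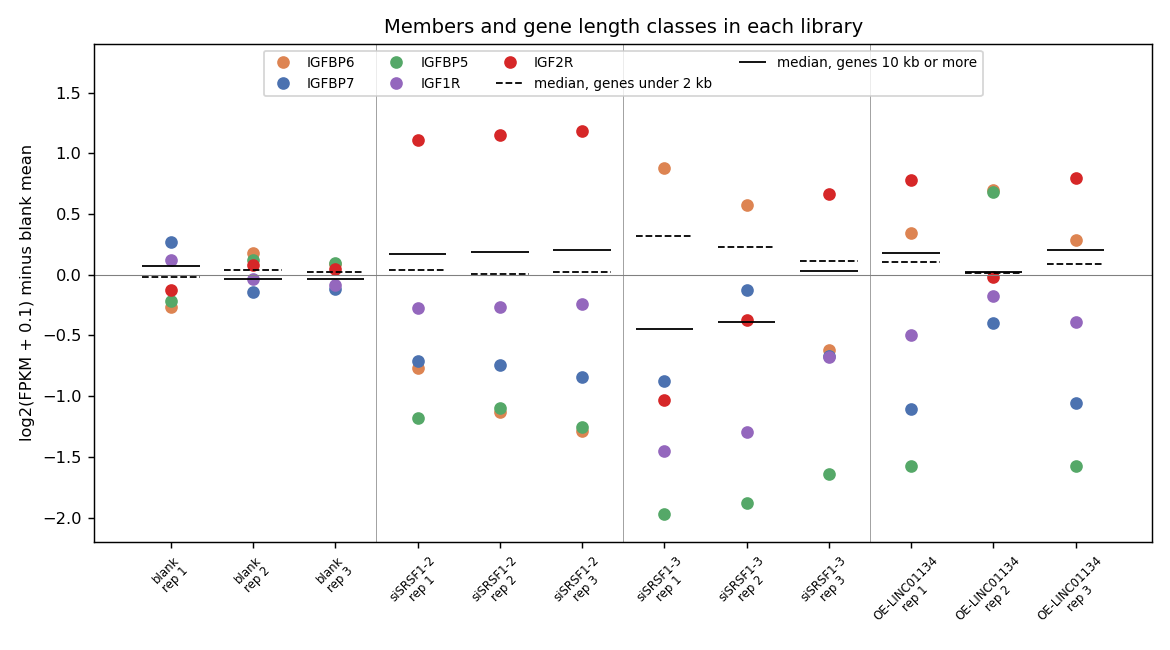
Log2(FPKM + 0.1) of 5 genes in each library minus the blank mean of the gene, with a dashed bar for the median of the 5346 genes under 2 kb and a solid bar for the median of the 1466 genes of 10 kb or more. In siSRSF1-3 libraries 1 and 2 the short class is above and the long class below 0, and IGFBP6 and IGF2R lie on the same sides.

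Other genes of the pathway were read from a list of 67, of which 53 were tested. With siSRSF1-2 the list had 1 gene called higher and 3 called lower, or 7.55% of the 53 beside 4.95% of all genes. Of the 3 lower, STC1 entered the test only through blank 2 and 3, so its place in this share gives no support. With siSRSF1-3 the list had 1 higher and 2 lower, or 5.66% beside 1.26%, and with OE-LINC01134 and between the siRNAs it had none. The median log2 fold change of the 53 genes was 0.05, -0.31, 0.04 and -0.40 in these comparisons, beside 0.02, -0.01, 0.05 and -0.02 for all genes tested. With siSRSF1-3, 38 of the 53 genes (71.7%) were below blank and 15 above, called or not, beside 50.7% of all genes below.

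Among the proteases and their inhibitors, HTRA1 rose with both siRNAs. HTRA1, a secreted serine protease that cuts IGFBP5, measured 3.83, 6.31 and 5.98 FPKM in blank, 12.8, 11.8 and 11.4 with siSRSF1-2 and 28.2, 22.8 and 15.0 with siSRSF1-3. It was above every blank library in both siRNA groups, in comparisons where 49.5% and 37.2% of all genes did not overlap. The log2 fold changes were 1.17 (SE 0.193, adjusted p = 0.00904, limma) and 2.00 (SE 0.302, adjusted p = 0.0453, limma). Without blank 1 the first was 0.95, under the fold limit, and its call was also lost with no filter on low values and in the fit over all 4 groups. With OE-LINC01134 it measured 4.44, 12.7 and 4.36 FPKM, high in the same library 2 in which IGFBP5 was high. STC1, stanniocalcin 1, which inhibits the pappalysins, measured 0.374, 4.03 and 3.50 FPKM in blank and 0.0612 to 0.122 FPKM with siSRSF1-2, a log2 fold change of -3.35 (SE 0.847, adjusted p = 0.0330, limma). Its call held in 1 of 6 fits that left out a library, with adjusted p up to 0.107 (limma). Blank 1 was again the low blank library, as for IGFBP4. Like IGFBP4, STC1 entered the test only through blank 2 and 3, so its call supports nothing here. PAPPA, PAPPA2, STC2, ADAM9 and ADAM12 were not called in any comparison.

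Among the adaptors and regulators, SOCS3, a feedback inhibitor of cytokine and insulin receptor signalling, fell with both siRNAs. It measured 3.82 to 6.18 FPKM in blank, 1.67, 1.50 and 1.87 with siSRSF1-2 and 0.597, 1.04 and 1.33 with siSRSF1-3. The log2 fold changes were -1.39 (SE 0.203, adjusted p = 0.00635, limma) and -2.16 (SE 0.334, adjusted p = 0.0453, limma). The first call was lost in the fit over all 4 groups. With OE-LINC01134, SOCS3 measured 1.07, 2.95 and 1.09 FPKM, also below every blank library, and was not called. Ranges of that group and blank did not overlap for 30.6% of all genes. GRB14, an adaptor that restrains the insulin receptor, went from 1.50 FPKM in blank to 0.600 FPKM with siSRSF1-2 (log2 fold change -1.20, SE 0.193, adjusted p = 0.00846, limma), a call that was lost with a pseudocount of 1. It measured 0.690, 1.02 and 0.856 FPKM with siSRSF1-3 and 0.607, 0.668 and 0.698 FPKM with OE-LINC01134. Both groups were also below every blank library (37.2% and 30.6% of all genes did not overlap), without a call. IRS1, the docking protein next to IGF1R, was not called: it measured 11.2, 4.78 and 4.55 FPKM in blank and 0.892, 1.21 and 3.05 FPKM with siSRSF1-3 (log2 fold change -1.99, SE 0.521, adjusted p = 0.0874, limma). It is named here after its values were seen.

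No gene of the 20 tested genes of the PI3K-Akt arm or the 9 of the Ras-MAPK arm was called in any of the 4 comparisons. The most abundant were INPPL1 and GSK3B in the first and NRAS and MAP2K2 in the second, with log2 fold changes against blank from -0.50 to 0.88 in the first pair and from -0.26 to 0.93 in the second. Of the other ligands, binding proteins and receptors, IGFBPL1 (3.82 FPKM on average) and INSR (1.31 FPKM) were tested and not called, and IGF1, INS, IGFBP1, IGFALS and INSRR were under the limit for testing. Among the regulators of IGF2 RNA, HMGA2, a chromatin protein that raises IGF2BP2 transcription, went from 13.5, 11.9 and 11.8 FPKM in blank to 4.48, 4.80 and 5.63 FPKM with siSRSF1-3. No library overlapped, as for 37.2% of all genes in that comparison, and the log2 fold change was -1.30 (SE 0.171, adjusted p = 0.0426, limma). HMGA2 was also below every blank library in the other groups, where 49.5% and 30.6% of all genes did not overlap. It measured 9.93, 10.4 and 10.7 FPKM with siSRSF1-2 (-0.26, adjusted p = 0.0543, limma). With OE-LINC01134 it measured 2.92, 11.4 and 2.95 FPKM (-1.39, SE 0.505, adjusted p = 0.149, limma). The calls of HTRA1, SOCS3 and HMGA2 with siSRSF1-3 each held in 1 of 6 fits that left out a library, with adjusted p up to 0.219 (limma). Over all 18 alternatives they held in 7, 7 and 9. Each was also lost with no filter on low values, equal FPKM sums, libraries scaled to their own reads and the replicate number as a block. IGF2BP2 itself had 30.6 FPKM in blank and 31.4 FPKM with siSRSF1-3 (log2 fold change 0.02, adjusted p = 0.949, limma).

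**Figure D5:**
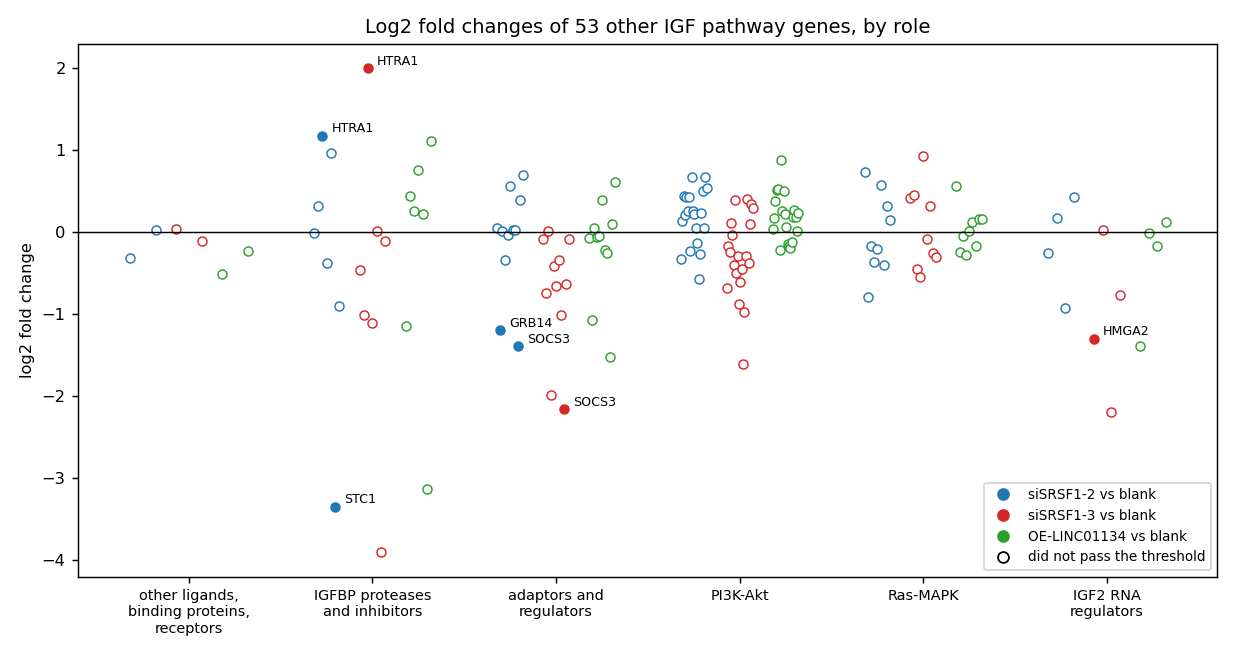
Log2 fold changes against blank of 53 tested genes by role, 1 point per gene and comparison, filled and named where called. HTRA1 is above 0 and SOCS3 below 0 for both siRNAs, STC1 and GRB14 are called lower for siSRSF1-2, HMGA2 is called lower for siSRSF1-3, and no point of the PI3K-Akt or Ras-MAPK arms is filled.

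The genes whose levels ran closest to the called members over the 12 libraries were taken by the root mean square difference of centred log2 values, with no test. For IGFBP5 they were HR, a histone demethylase and nuclear receptor corepressor (0.147), SNAP25 (0.260) and ETV1 (0.282), against a spread of IGFBP5 about its own mean of 0.855. HR measured 3.91 to 4.29 FPKM in blank and 1.37, 6.80 and 1.51 FPKM in OE-LINC01134 libraries 1 to 3, with the same high library 2 as IGFBP5. For IGFBP6 they were TSPAN1 (0.190), RMI2 (0.224) and FBXO2 (0.233), against a spread of 0.691. For IGF2R they were MPDZ (0.122), JMJD1C (0.136) and KIDINS220 (0.143), against a spread of 0.667. JMJD1C, a jumonji domain protein, measured 9.76 to 12.5 FPKM in blank, 21.4 to 24.0 with siSRSF1-2 and 7.11, 9.25 and 18.6 in siSRSF1-3 libraries 1 to 3.

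The genes beside the members did not move as a block. SPRYD3, which lies 18 kb from IGFBP6, stood 0.09 above blank on the log2 scale in the siSRSF1-2 group (SE 0.0620, adjusted p = 0.328, limma). An unnamed lincRNA 59.3 kb from IGFBP4 was called lower with siSRSF1-2 (-2.44, SE 0.239, adjusted p = 0.00230, limma). An unnamed lincRNA 47.8 kb from IGFBP3 was called lower with OE-LINC01134 (-4.41, SE 0.427, adjusted p = 0.0199, limma). A U6 small nuclear RNA pseudogene 28 kb from IGFBP7 was called higher with siSRSF1-2 (2.89, SE 0.743, adjusted p = 0.0351, limma). It spans only 57002692 to 57002792 and averaged 0.83 FPKM, so few reads lie behind this call. Apart from IGFBP5, which neighbours IGFBP2, no other nearest tested gene was called.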

How the data were processed

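RNA from 12 libraries labelled U2OS, in 4 groups of 3, was sequenced; the labels name a SMARTER mRNA kit and the study's methods NEBNext Ultra with poly-T beads. The authors deposited 1 table of FPKM per gene with gene lengths and positions; its aligner, annotation version and genome build are not given in the sources used here, beyond mouse builds in the labels that the human identifiers do not match. Recomputed median-of-ratios factors were equal in all libraries, so the deposited FPKM already carried that scaling, and FPKM times length gave whole reads within 0.000153.

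FPKM is normalized, so limma 3.58.1 (R 4.3.3, trended eBayes, Benjamini-Hochberg) was run on log2(FPKM + 0.1) for 17538 genes with a mean of at least 0.5 FPKM, between 2 groups at a time. Fold changes are on that scale and understate changes of low genes. The code was tested on simulated data. Counting noise was the median squared difference of reads over its Poisson expectation. The 9 genes, the 67 pathway genes and the marker lists were chosen with earlier results of these data known. Text names all members, called pathway genes or the 2 most abundant of a role without calls, nearest tested neighbours, and the 3 nearest genes by level. Of the markers and neighbours, 2 genes are not reported here. No protein or promoter sequence is shown, because no human reference was used here.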

Additional observations from a re-analysis of the deposited data

Results flagged for a closer look

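IGFBP6 lay on opposite sides of blank in a pair of groups: all 3 siSRSF1-2 libraries (5.05 to 7.27 FPKM) were below the blank range and all 3 OE-LINC01134 libraries (15.2 to 20.3 FPKM) above it. It was called with siSRSF1-2 and not with OE-LINC01134 (log2 fold change 0.45, adjusted p = 0.163 from limma), and 49.5% and 30.6% of all genes did not overlap with blank in these comparisons. The difference between both log2 fold changes, siSRSF1-2 minus OE-LINC01134, was -1.51. Both were measured against the same 3 blank libraries, and the difference was not tested.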

How the results depend on the processing

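Of the log2 fold changes of the 6 tested members under the alternatives, 372 kept direction and side of the threshold, 17 passed it anew, 14 lost it and 13 changed sign. The cause was not tested for these changes. With 1 fit over all 4 groups, 0 members were called for siSRSF1-2, 3 for siSRSF1-3 and 2 between the siRNAs. Of all 17538 genes, that fit called 134 higher and 180 lower for siSRSF1-2, 1245 and 1177 for siSRSF1-3, and 1472 and 1259 between the siRNAs. Without a fold limit 5 members were called for siSRSF1-2, beside 4702 of all genes. At an unadjusted p under 0.05, 3 members were called for siSRSF1-3, 1 for OE-LINC01134 and 2 between the siRNAs. Of all genes, 1327 higher and 1269 lower, 430 and 877, and 1581 and 1302 passed in these comparisons. With FPKM rescaled to equal sums 0 members were called for siSRSF1-3, where 1 of all genes was called higher and 0 lower. Leaving out 1 library gave 2 to 4 members for siSRSF1-2, 0 to 2 for siSRSF1-3, 0 to 2 for OE-LINC01134 and 0 to 3 between the siRNAs. Of all genes it called 201 to 532 higher and 331 to 656 lower for siSRSF1-2, and 0 to 2192 and 0 to 1992 for siSRSF1-3. For OE-LINC01134 it called 1 to 511 and 0 to 1029, and between the siRNAs 0 to 2807 and 0 to 2551. Leaving out blank 1 together with siSRSF1-3 library 3, or with OE-LINC01134 library 2, which was chosen after seeing the data, gave 3 and 2 members. Of all genes, those fits called 1979 higher and 1718 lower, and 895 higher and 1551 lower. The counts at an unadjusted p for siSRSF1-3 and OE-LINC01134, the 4-group count for siSRSF1-3 and all counts without blank 1 include IGFBP4, which entered only through blank 2 and 3, so its place in them gives no support.

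The labels number replicates 1 to 3 in each group, but same-numbered libraries correlated by only -0.0815 to 0.212 about their group means, so the samples share only a number. With the replicate block, 0 members were called for siSRSF1-3 in place of 1 (IGFBP5, adjusted p = 0.145 from limma), where 0 of all genes were called. The other 3 counts of members called kept their values within 1.5 times.

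Sign changes were these. IGFBP6 with siSRSF1-3 was -0.17 with equal sums and -0.022 without siSRSF1-3 library 1, and IGF2R with siSRSF1-3 was 0.15 without that library. Between the siRNAs, IGFBP4 was -0.34 with a pseudocount of 0.01, -0.14 with equal sums, -0.068 with libraries scaled to their own reads, -0.66 with voom on recovered reads, -0.05 without siSRSF1-2 library 1 and -0.26 without siSRSF1-3 library 1. IGFBP7 between the siRNAs was -0.36 with equal sums, -0.093 with own reads, -0.092 with voom and -0.0027 without siSRSF1-3 library 2. Leaving out 1 library gave -0.022 to 0.73 for IGFBP6 and -0.70 to 0.15 for IGF2R with siSRSF1-3, and -0.26 to 0.22 for IGFBP4 and -0.0027 to 0.37 for IGFBP7 between the siRNAs. Equal sums moved the median of all genes to 0.15, -0.43, 0.14 and -0.57 in the 4 comparisons, and own reads moved it to -0.26 for siSRSF1-3 and -0.31 between the siRNAs. Relative to those medians, IGFBP6 with siSRSF1-3 was 0.26 and 0.27, and IGFBP7 between the siRNAs was 0.20 and 0.22.

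The summed IGFBP level was 60.4 FPKM in blank and 32.0 with siSRSF1-2 with equal sums, and 59.3 and 29.5 with own reads. Equal sums took it from a mean of 38.6 to 30.4 FPKM with siSRSF1-3 and from 42.2 to 47.4 FPKM with OE-LINC01134. The deposited FPKM of all genes summed to 611084, 410612 and 302504 in siSRSF1-3 libraries 1 to 3. In the other groups these totals were 281051 to 324607. Leaving out 1 library gave 55.5 to 57.9 in blank, 26.4 to 28.3 with siSRSF1-2, 34.8 to 43.5 with siSRSF1-3 and 32.4 to 47.1 with OE-LINC01134. A mean limit of 1 FPKM gave no test for IGFBP4. With 4 to 30 reads per library, differences in IGF2 could not be read.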

Other observations

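IGFBP4 was the highest of 12 genes that reached 1 FPKM in blank 2 and blank 3 and stayed below 0.1 FPKM in the other 10 libraries, blank 1 included. The rule was chosen after the values were seen, and no test was made. The others were FOXR1, a forkhead factor (4.15 and 4.08 FPKM in blank 2 and 3), the secreted chemokine CXCL1 (3.75 and 3.33), the granulocyte growth factor CSF3 (2.58 and 2.73), CHCHD10, POPDC3, the BMP antagonist GREM1 (1.83 and 1.96), the receptor tyrosine kinase antagonist SPRY4 (1.52 and 1.36), MARCKS, GAL, NT5E and the Wnt antagonist DKK1 (1.07 and 1.03).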
